A study of Mus musculus with 2 samples.

Results

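Mir211 and Mir204 are the pair of mouse microRNA (miRNA) genes that lie in introns of the cation channel genes Trpm1 and Trpm3. They were found by their gene names in the GENCODE M21 annotation and are 2 of the 2202 miRNA genes listed in the files. The small RNA of the left cortex of males at 25 days of age was sequenced in 2 libraries. The labels number these as separate mice, while the donor entry is shared. The mice were B6CASTF1/J, a first-generation cross of the C57BL/6J and CAST/EiJ strains, and the labels name no treatment and no engineered allele. All samples form 1 group with biological replicates 2 and 1, so the data give levels and a comparison of these libraries, not of conditions.

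An intronic miRNA is cut as a hairpin from the primary transcript of its host gene, and each arm of the hairpin can yield a mature miRNA. Bases 2 to 8 of a mature miRNA, its seed, guide it to complementary sites in target mRNAs. miR-204 and miR-211 are known for high levels in the retinal pigment epithelium, where they maintain the differentiated state. miR-204 is also known from the choroid plexus, the epithelium in the brain ventricles that makes cerebrospinal fluid. miR-211 is known from melanocytes, where the pigment cell factor MITF drives transcription of Trpm1. TRPM3, the product of the other host, is a channel of sensory neurons and of several brain regions that responds to heat and to a neurosteroid, while TRPM1 is the channel through which retinal ON bipolar cells respond to light.

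The mature arms are shown first, because their likeness bears on how reads of one gene can be told from those of the other. Both genes had entries in RefSeq (GRCm38.p6, the assembly also called mm10). Letters run 5′ to 3′ and the seed is in capitals.
miR-211-5p: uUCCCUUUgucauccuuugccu
miR-204-5p: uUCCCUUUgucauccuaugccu
miR-211-3p: gCAAGGACagcaaaggggggc
miR-204-3p: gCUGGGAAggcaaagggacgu
The 5p arms were identical at 21 of 22 bases. With positions counted from 1 at the 5′ end, the only difference from miR-204-5p to miR-211-5p was A17U. The arms thus shared their first 16 bases, the whole seed included, and their last 5 bases. The 3p arms were identical at 14 of 21 bases (66.7%) when aligned without gaps, and their seeds differed. Of 1738 mature mouse miRNAs in the sequence table, 3 held the 5p seed: miR-211-5p, miR-204-5p and miR-7670-3p. Mir7670, which gives the last of these, had 0 counts in both libraries. Genes of the files that have no entry in that table were not searched. The seed of miR-211-3p occurred in no other mature miRNA of the table, and that of miR-204-3p also occurred in miR-7684-5p, whose gene Mir7684 had 0 counts in both libraries.

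The hairpins are shown next, with both mature arms in capitals.
Mir211 hairpin: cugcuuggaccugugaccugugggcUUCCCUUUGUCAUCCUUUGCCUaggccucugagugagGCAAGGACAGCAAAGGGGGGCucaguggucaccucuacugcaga
Mir204 hairpin: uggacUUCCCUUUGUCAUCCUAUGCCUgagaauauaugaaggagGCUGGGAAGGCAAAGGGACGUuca
The longest run that the hairpins shared was 17 bases, made of the first 16 bases of the 5p arm and the base before it. With every other hairpin in the table, on either strand, the longest shared run was 12 bases for each member. Among 141767 annotated transcripts, each of the 4 mature sequences occurred exactly in 1, its own hairpin. The 3p arms differed at 7 bases, the first at position 3. On the 5p arm, a read that covers position 17 separates the genes by 1 base, and a read that ends before it does not. How many reads carried another base at that position through error was not tested. The counts are given per hairpin, so the arms cannot be told apart in them.

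Mir211 (ENSMUSG00000065585.1) lies on mm10 chromosome 7 from 64205806 to 64205911, on the plus strand, within Trpm1. Mir204 (ENSMUSG00000065507.3) lies on chromosome 19 from 22750605 to 22750672, also on the plus strand, within Trpm3. Each hairpin is transcribed in the direction of its host, and neither overlapped an antisense gene in the annotation. Mir211 sat 52.0 kb from the start of Trpm1, in intron 6 of the 26 introns of transcript Trpm1-201. That intron runs from 64204594 to 64208275 (3682 bases). Mir204 sat 612 kb from the start of the much longer Trpm3, in intron 6 of the 24 introns of transcript Trpm3-218. That intron runs from 22733172 to 22766633 (33462 bases). Mir211 was in an intron of 12 of the 23 Trpm1 transcripts and Mir204 in an intron of 18 of the 24 Trpm3 transcripts. The hairpins overlapped an exon in none of these, and the remaining transcripts did not reach across the loci. The intron number depends on the transcript: in other Trpm1 transcripts Mir211 lies in intron 1, 2, 4 or 5, and in 4 of the Trpm3 transcripts Mir204 lies in intron 7 (16788 bases).

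**Figure D1:**
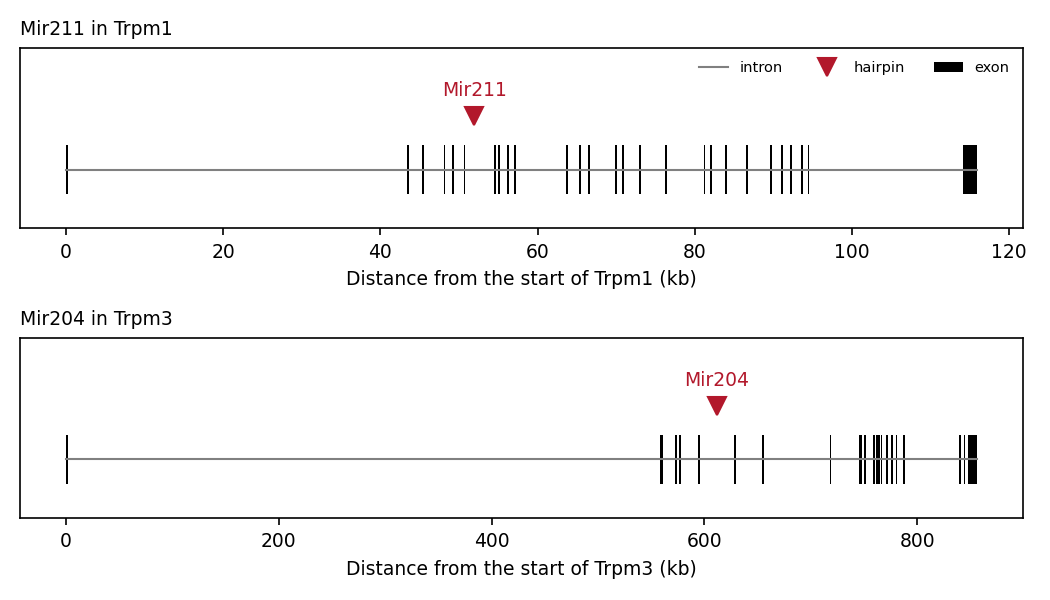
Position of the Mir211 hairpin in Trpm1 (top) and of the Mir204 hairpin in Trpm3 (bottom). The x axis is the distance from the start of the host gene in kb, black bars are the exons of the longest annotated transcript (widened to be visible), the grey line stands for introns and the red triangle for the hairpin. Mir211 lies 52.0 kb and Mir204 612 kb from the start of its host, each between exons.

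The unit of level is CPM, the counts of a gene per 1000000 reads that the authors' files assign to miRNA genes on their own strand. These totals were 4447390 in replicate 2 and 2388379 in replicate 1. No gene was credited with multimapping reads, which made up 52.8% (replicate 2) and 48.6% (replicate 1) of those mapped. Counts were not divided by gene length, since a small-RNA read covers an arm and not the hairpin. A chi-square test on the 761 genes with a count found a difference beyond sampling noise (statistic 176676, 760 degrees of freedom), so the libraries were not treated as copies of each other. That they come from separate animals rests on the labels alone. Of the miRNAs known from cells of the cortex, the neuronal Mir137 had 8063 CPM (replicate 2) and 6366 CPM (replicate 1), and the oligodendrocyte miRNA Mir338 had 1341 and 1373 CPM. The labelled tissue thus showed these markers at levels above those of both members. Not every marker was: Mir142 of white blood cells and microglia had 77.6 and 74.9 CPM, below Mir204.

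Mir204 was a moderately abundant gene of the cortex, and Mir211 was close to the limit of what could be measured. Mir211 had 38 counts in replicate 2 and 6 counts in replicate 1. Mir204 had 3195 counts in replicate 2 and 1211 in replicate 1. The counts of Mir211 lay far below those of Mir204 in both libraries, with no overlap.

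As a level, Mir211 had 8.54 CPM in replicate 2 (6.05 to 11.7 as an exact 95% interval after Clopper and Pearson) and 2.51 CPM in replicate 1 (0.922 to 5.47), a mean of 5.53 ± 4.27 CPM (SD, n = 2). Mir204 had 718 CPM in replicate 2 (694 to 744) and 507 CPM in replicate 1 (479 to 536), a mean of 613 ± 149 CPM (SD, n = 2). The lower limit for Mir211 in replicate 1 fell under the level of 3 counts, which equals 0.675 CPM for replicate 2 and 1.26 CPM for replicate 1. Both members had counts in both libraries, but the level of Mir211 in replicate 1 was known only to within several-fold. The libraries are not known to carry molecular identifiers, so every interval and floor given here describes counting error alone.

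**Figure D2:**
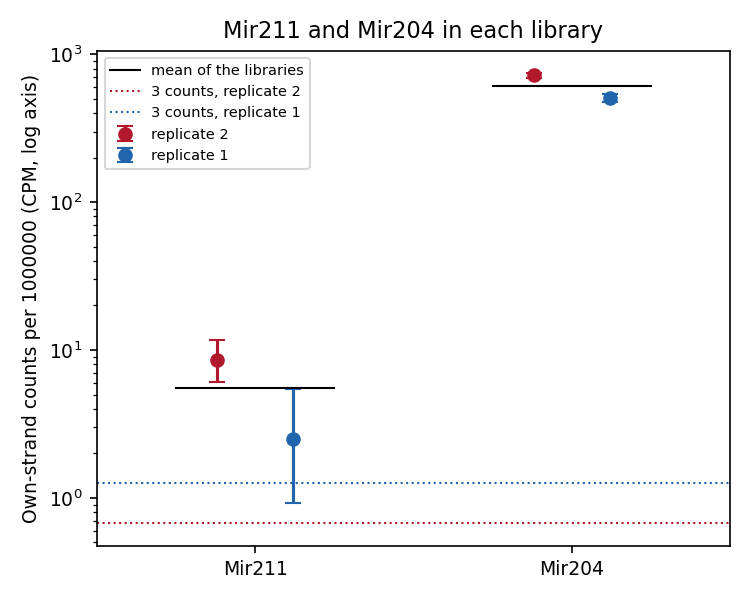
Level of Mir211 and Mir204 in replicate 2 (red) and replicate 1 (blue), in CPM on a log axis, with exact 95% intervals for counting error, the mean of the libraries as a black line and the level of 3 counts as dotted lines. Mir211 lies at 8.54 and 2.51 CPM and Mir204 at 718 and 507 CPM, and for both genes replicate 2 is the higher one.

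No read was counted on the opposite strand of either member in either library. This was the common state: 367 of the 392 genes that reached 10 counts in both libraries, called measured below, also had 0 opposite-strand counts in both (93.6%). Mir204 was among the 392 measured genes. Mir211 was not, because of its 6 counts in replicate 1.

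Within a library, Mir211 was a small fraction of its paralog. Its counts were 1.19% of those of Mir204 in replicate 2 (exact interval 0.840 to 1.64%) and 0.495% in replicate 1 (0.181 to 1.08%), a mean of 0.842% ± 0.491 (SD, n = 2). Put the other way, there were 84.1 Mir204 counts for each Mir211 count in replicate 2 and 202 in replicate 1. Divided by the annotated length of the hairpins, 106 bases for Mir211 and 68 for Mir204, the fractions were 0.763% and 0.318%. This ratio needs no library total. It differed between the libraries by 2.40-fold, with p = 0.0412 in Fisher's exact test (two-sided, counting error only). The pair summed to 727 CPM (replicate 2) and 509.6 CPM (replicate 1), of which Mir204 gave 99.0% over both libraries.

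Other miRNA pairs that differ by 1 base gave a scale for this fraction. Pairs of mature miRNAs from different genes, equal in length and with 1 differing base, were searched for after the counts of the members were known. With at least 1000 counts of the more abundant gene in each library there were 13 such pairs of genes besides Mir211 and Mir204, and 5 of them had no numbered copy. In those 5, the less abundant gene had 0.937 to 65.7% of the counts of the other in replicate 2 and 0.861 to 50.6% in replicate 1. Mir106a stood closest, at 0.937% of Mir17 in replicate 2 and 0.861% in replicate 1. The fraction for Mir211 lay above that of Mir106a in replicate 2 and below it in replicate 1. Among the pairs with numbered copies, whose counts are uncertain, Mir103-1 was at 0.212% of Mir107 in replicate 2 and 0.268% in replicate 1, so Mir211 was inside the range of all 13 pairs. Mir27a, which differs from Mir27b in 1 base of the 3p arm, was at 7.74% and 8.33% of it, and Mir100 at 26.8% and 29.0% of Mir99a. How much of the lowest fractions came from misread bases was not tested.

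Among all 2202 genes, Mir211 ranked 339th in replicate 2 and 434th in replicate 1, and Mir204 ranked 120th and 131st. Of the 761 genes with a count in either library, 50.9% had a lower mean level than Mir211 and 83.7% a lower one than Mir204. The median of these 761 genes was 4.95 CPM for replicate 2 and 4.61 CPM for replicate 1. Mir211 was above it in replicate 2 and below it in replicate 1, while Mir204 was above it in both.

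Set against other miRNAs of introns, the members kept this order. In introns of protein-coding genes on the same strand lay 737 miRNA genes, of which 346 had a count. By mean level Mir211 ranked 149th and Mir204 39th of these 346. Their median was 3.598 CPM for replicate 2 and 3.350 CPM for replicate 1. Mir204 exceeded it in both libraries, and Mir211 in replicate 2 only.

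**Figure D3:**
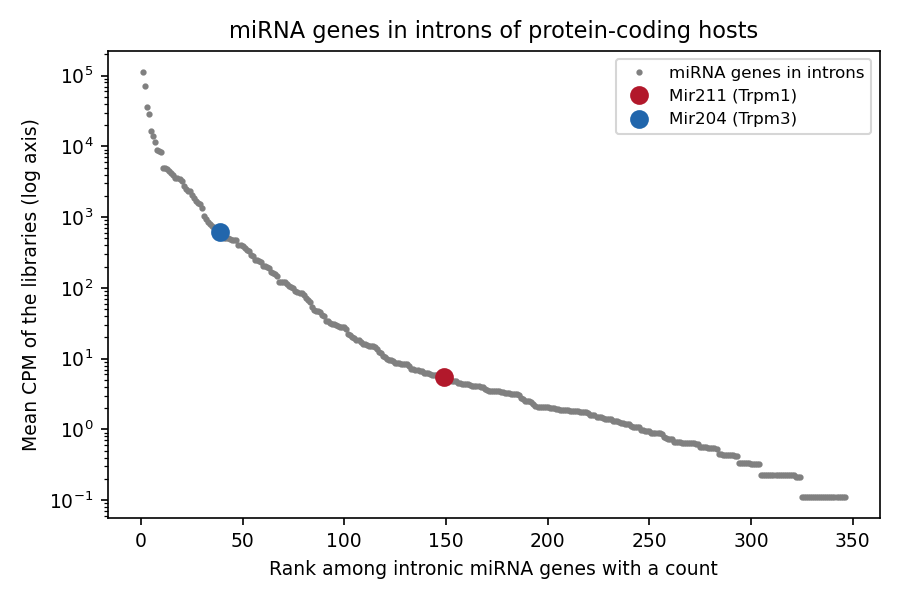
Mean CPM of the libraries on a log axis against rank for the 346 miRNA genes in introns of protein-coding hosts that had a count. Mir211 (red) is 149th at 5.53 CPM, and Mir204 (blue) is 39th at 613 CPM.

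In the order of mean levels, neither member stood apart from its neighbours. Directly above Mir211 came Mir6906 (5.58 ± 2.17 CPM, an intron of Spock2) and Mir6915 (5.58 ± 1.97 CPM, an intron of Ankrd52), and below it Mir547 (5.50 ± 1.10 CPM) and Mir6990 (5.45 ± 1.20 CPM). The gaps were far smaller than the SD of Mir211. Above Mir204 came Mir7689 (645 ± 110.3 CPM) and Mir1981 (620 ± 111 CPM, an intron of Marc2), and below it Mir346 (610 ± 119 CPM) and Mir329 (553 ± 77.6 CPM, in the imprinted Dlk1-Dio3 miRNA domain). All of these gaps were below the SD of Mir204. The range of the libraries for Mir211 held the means of 101 other genes, and that for Mir204 the means of 11.

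The genes most like each member were taken as the 5 with the smallest Euclidean distance in log2(CPM + 1) over the 2 libraries. For Mir211 these were Mir7083, Mir6897, Mir5122, Gm24589 and Mir450b, at distances of 0.23 to 0.50. Mir7083, in an intron of Dock6, had 34 counts in replicate 2 and 5 in replicate 1. Mir6897, in an intron of Uggt1, had 49 and 6. All 5 had fewer than 10 counts in replicate 1, so the likeness rests on few reads.

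For Mir204 the nearest genes were Mir346, Mir7689, Mir181a-1, Mir329 and Mir467d, at distances of 0.07 to 0.25. Mir346, in an intron of the glutamate receptor gene Grid1, had 694 CPM in replicate 2 and 526 CPM in replicate 1. Mir467d, of the Sfmbt2 cluster, had 814 and 571 CPM. These genes share the library depth with Mir204, and a distance over 2 libraries describes a level more than a pattern. Mir181a-1 and Mir467d have near-identical relatives, so their levels are uncertain.

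Both members were higher in replicate 2 than in replicate 1. Mir204 was 1.42-fold higher (exact interval 1.33 to 1.51), a log2 ratio of 0.50 with a counting SE of 0.05. It passed the exact conditional binomial test between the libraries (two-sided, Benjamini-Hochberg adjusted p = 2.09e-25 over 392 measured genes). So did 223 of these genes, or 56.9%, and 134 of them, or 34.2%, were higher in replicate 2. When the own-strand total was taken without the 10 most abundant genes, 98 were higher and 133 lower, and with all mapped reads as the total 107 were higher and 119 lower. Mir204 remained higher in replicate 2 under both totals, at log2 ratios of 0.32 and 0.38.

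Mir211 was 3.40-fold higher in replicate 2 (exact interval 1.43 to 9.84), a log2 ratio of 1.77 with a counting SE of 0.63. As an unmeasured gene it was tested alone, with an unadjusted p = 0.00233 in the same exact test. With the minimum lowered to 1 count it had an adjusted p of 0.00710 over 613 genes in the exact test, of which 232 (37.8%) passed and 139 (22.7%) were higher in replicate 2. These tests compare the libraries and cover counting error only.

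The spread between the libraries was much wider than counting error. Over the 242 genes that reached 100 counts in both libraries, the SD of log2 ratios was 0.56, where counting alone gives 0.08, and 68 of them (28.1%) differed by at least as much as Mir204. The log2 ratio of Mir204 was thus within 1 SD of that spread. Of the 50 measured genes nearest to it in level, 12 differed by at least as much. With that spread allowed for in edgeR's exact test (biological coefficient of variation 0.311), neither member passed. The dispersion came from the same libraries, so the difference under test was itself counted as noise. That test therefore cannot decide whether the members differ.

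**Figure D4:**
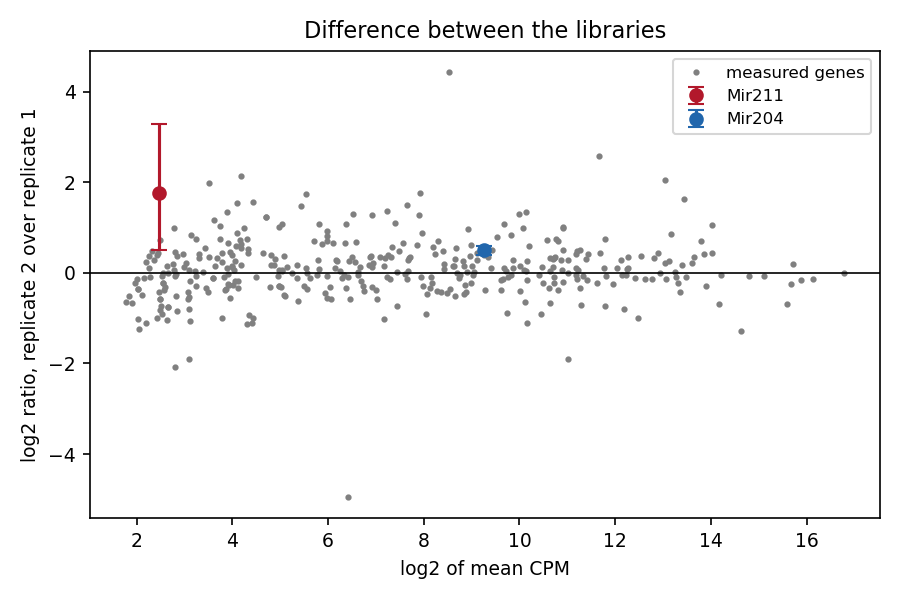
Log2 ratio of replicate 2 over replicate 1 against log2 of the mean CPM for the 392 measured genes (grey), with Mir211 (red, outside the measured genes) and Mir204 (blue) and their exact 95% intervals. Mir204 at 0.50 lies inside the cloud of genes of like level, and Mir211 stands at 1.77 with a wide interval. Genes of its level appear in the cloud only if they reached 10 counts in replicate 1, which keeps high ratios out, so its place against them is not read.

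Genes known from the tissues in which the members are abundant were read beside them. On the choroid plexus and ependyma list of 7 genes, Mir211 and Mir204 included, 5 had a count and 4 were measured. The sum of the list was 1010.5 CPM (replicate 2) and 870.0 CPM (replicate 1), of which Mir204 gave 71.1% and 58.3%. Mir449a, a miRNA of multiciliated cells in an intron of Cdc20b, had 43.2 CPM in replicate 2 and 38.1 CPM in replicate 1. Its clustered neighbours Mir449b and Mir449c had 0 counts in both libraries, which at a one-sided level of 95% allows up to 3 counts, or 0.675 CPM for replicate 2 and 1.26 CPM for replicate 1.

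Mir34b and Mir34c, also known from multiciliated cells, had 12.8 and 228 CPM in replicate 2, against 10.05 and 312 CPM in replicate 1. Of the 4 measured genes of the list, where 56.9% of all measured genes passed, Mir204 was higher and Mir34c lower past the test (log2 ratio −0.46, adjusted p = 2.67e-10, exact binomial test), while Mir449a and Mir34b did not pass. The median log2 ratio of these 4 was 0.27, against 0.06 for all measured genes. Without the members, the list summed to 284 CPM (replicate 2) and 360.5 CPM (replicate 1). The lower sum in replicate 2 came from Mir34c alone, while Mir449a and Mir34b had somewhat higher levels there without passing. The measured genes of the list thus did not all move one way.

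The pigment cell list added Mir184, known from epithelia of the eye. It had 104 CPM (replicate 2) and 155 CPM (replicate 1) and was lower in replicate 2 (log2 ratio −0.58, adjusted p = 3.01e-08, exact binomial test), opposite to both members. Mir211 was thus the lowest of the 3 genes of that list in both libraries. The photoreceptor and hair cell miRNAs Mir96, Mir182 and Mir183 summed to 22.9 CPM (replicate 2) and 21.4 CPM (replicate 1). Mir96 had 1 count in replicate 2 and 0 in replicate 1, and neither of the others passed the test.

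Of the 7 epithelial genes, all had a count and 6 were measured. They summed to 231 CPM (replicate 2) and 216 CPM (replicate 1), well under Mir204 alone. Mir200b (71.3 CPM in replicate 2, 21.4 CPM in replicate 1) and Mir205 (25.2 and 12.6 CPM) were higher in replicate 2 past the test, and Mir200c (14.4 and 28.9 CPM) and Mir203 (54.0 and 80.4 CPM) lower. In tissue samples, fewer cells of a type and less RNA per cell cannot be told apart. The part of choroid plexus or other epithelial cells in the levels of the members was not tested.

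**Figure D5:**
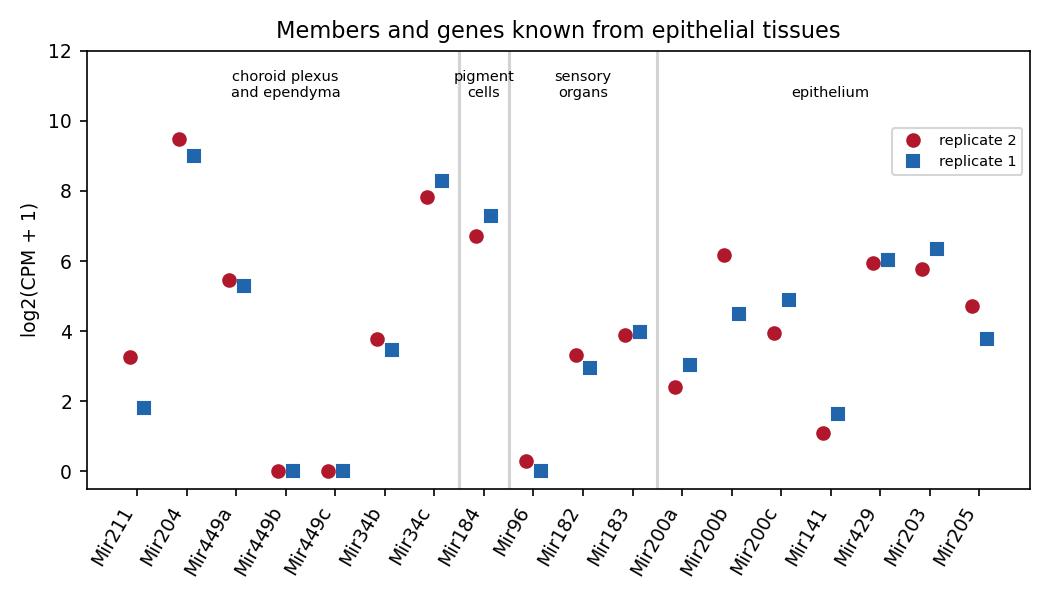
Level as log2(CPM + 1) in replicate 2 (red circles) and replicate 1 (blue squares) for Mir211, Mir204 and genes known from choroid plexus and ependyma, pigment cells, sensory organs and epithelium. Mir204 is the highest gene shown in both libraries, Mir34c and Mir184 come next, and Mir449b and Mir449c are at 0.

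Levels of cortical, vascular and blood miRNAs gave the members a place in order of abundance, which assigns them to no cell type. All 11 genes of that list were measured, from Mir142 of white blood cells and microglia (76.3 ± 1.86 CPM) to the activity-dependent neuronal Mir132 (49092 ± 15979.9 CPM). Mir204 was above Mir142 and below the other 10 by mean level, and Mir211 was below all 11. Past the test, 6 of the 11 were higher in replicate 2 and 3 lower, where 56.9% of all measured genes passed and 34.2% were higher. All 11 had at least 100 counts in both libraries. At that count minimum 194 of 242 genes passed and 115 were higher, so the list was near the share of such genes. The split over all measured genes turned under the other totals given above. The astrocyte miRNAs Mir23b (19141 CPM in replicate 2, 14098 CPM in replicate 1) and Mir29a (11948 and 6554 CPM) were among the higher ones, as was Mir204. So were the endothelial Mir126a (22504 and 10782 CPM) and the neuronal Mir137 (8063 and 6366 CPM). The oligodendrocyte Mir219a-2 (2210 and 1345 CPM) and Mir150 of blood cells (1496 and 1358 CPM) completed the higher ones. The lower ones were the neuronal Mir132 (37793 CPM in replicate 2, 60392 CPM in replicate 1) and Mir212 (1075 and 1193 CPM) and the smooth-muscle Mir143 (5238 and 5660 CPM). Neuronal and vascular genes thus lay on both sides. The part of these cells in the difference of Mir204 was not tested.

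Among miRNA genes hosted by channel and receptor genes, Mir204 was the third by mean level. The list held 24 genes, of which 18 had a count and 12 were measured. Past the test, 4 of the 12 were higher and 2 lower in replicate 2, near the 56.9% called and 34.2% higher among all measured genes. Their median log2 ratio was 0.12, against 0.06 for all measured genes. Only Mir501 (857 ± 361 CPM) and Mir532 (808 ± 48.4 CPM), both in introns of the chloride transporter gene Clcn5, had a higher mean than Mir204. Mir346 is not on this list, because its receptor host was not among the gene name prefixes searched.

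The host Htr2c was looked at after the values of that list were seen, because its product, a serotonin receptor, is known to be abundant in choroid plexus. Its 7 miRNA genes summed to 457 CPM (replicate 2) and 159.9 CPM (replicate 1), a ratio of 2.86. Mir1298 had 374 CPM in replicate 2 and 110.1 CPM in replicate 1, a log2 ratio of 1.77 (adjusted p = 2.16e-98, exact binomial test). Mir1264 had 36.4 and 15.5 CPM (log2 ratio 1.23, adjusted p = 1.32e-06, exact binomial test). The other 2 measured genes of the host, Mir448 (23.6 and 16.3 CPM) and Mir764 (16.6 and 15.1 CPM), did not pass. Thus 2 of the 4 measured genes of the host passed, both higher in replicate 2, where 56.9% of all measured genes passed and 34.2% were higher. With so few genes, these calls are not read as a trait of the host. Other hosts on the list did not share the direction. The 5 miRNA genes of Clcn5, all measured, summed to 1783 CPM (replicate 2) and 2286 CPM (replicate 1), a ratio of 0.780. Past the test, 1 of them was higher and 2 were lower. The measured genes in Cacng8 and Grm8 had ratios of 1.06 and 1.07 and did not pass. Mir211 and Mir204, like the sum of Htr2c, were higher in replicate 2. A common source was not tested.

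The miRNA genes closest to each member were at 0 counts. Of the 5 genes nearest to Mir211 on chromosome 7, the closest was Mir6416, 44.2 kb away on the opposite strand within Trpm1, with 0 counts in both libraries. Among these 5, only Mir344f (41 counts in replicate 2, 11 in replicate 1) and Gm24923 (2 and 0) had a count, at distances of 2160 and 2127 kb. Of the 5 genes nearest to Mir204 on chromosome 19, the closest was Mir1192 in an intron of Klf9, 399 kb away, with 0 counts in both. Mir101b, in an intron of Rcl1 and 6385 kb away, was the only one with a count. It had 333 CPM (replicate 2) and 474 CPM (replicate 1), and was lower in replicate 2 (log2 ratio −0.51, adjusted p = 4.42e-18, exact binomial test), opposite to Mir204.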

How the data were processed

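For each miRNA gene the authors deposited raw counts of reads, made on mm10 with the GENCODE M21 annotation according to the readme files. Aligner and counter: not given in the sources used here. Each file has 3 columns of counts, read from the values as both strands together, the gene's own strand and the opposite strand. Own-strand counts were used. The 4 leading entries name no gene and were kept out of library sizes: unmapped reads were 18.2% of all reads in replicate 2 and 31.6% in replicate 1, and reads in no feature 6.91% and 7.36% of mapped reads. mm10 is the C57BL/6J genome, and loss of reads from CAST/EiJ alleles that differ from it was not tested. All 2202 identifiers matched the annotation, and sequences came from RefSeq (GRCm38.p6).

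CPM, exact conditional binomial tests with Benjamini-Hochberg adjustment at 0.05 over genes that reached 10 counts in both libraries, Fisher's exact test and Clopper-Pearson intervals were computed with Python 3.11.15 and its libraries SciPy 1.17.1, pandas 2.3.3 and NumPy 2.4.6, and drawn with matplotlib 3.10.9. With 1 group the quasi-likelihood test has no contrast. edgeR 4.0.16 gave TMM factors and an alternative exact test, and DESeq2 1.42.0 gave size factors (R 4.3.3). The binomial test was tested on simulated data. Labels number the mice separately while the donor entry is shared. P-values measure the difference between these libraries only. The members, lists and tests were chosen with earlier results of these data known. Named genes were the members, the 5 genes nearest in level to each, the 2 above and below each, and list genes. The pairs that differ by 1 base and the host Htr2c were added after values were seen.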

Additional observations from a re-analysis of the deposited data

How the results depend on the processing

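No paired analysis was possible because the design has 1 group, in which replicate numbers name mice according to the labels. The mean level of Mir204 was 1237 CPM when the total left out the 10 most abundant genes and 256 CPM with all mapped reads as the total, and that of Mir211 was 10.9 and 2.28 CPM under the same totals. Fewer or more reads in the divisor make this shift. With both strands together, TMM scaling or DESeq2 size factors both levels stayed within 1 SD. With 1 replicate left out, the level ran from 507 to 718 CPM for Mir204 and from 2.51 to 8.54 CPM for Mir211, and Mir211 ran from 0.495 to 1.19% of Mir204. Of the 8 alternatives run for the log2 ratio of Mir204 between the libraries, the count minimums of 1 and 100 could not change it. Taking both strands together changed only the totals. That ratio kept its direction under all 8, and its call under 7. In edgeR's exact test, which allows for the spread between the libraries, it was 0.50 with an adjusted p of 1, and that of Mir211 was 1.75 with an unadjusted p of 0.0678. That test called 3 of 392 genes (Mir195a, Mir26a-1 and Mir301, named after their values were seen), and 19 had an unadjusted p under 0.05. It sets 1 library against 1 with a dispersion from the same pair. The binomial test called 220 to 231 of 392 genes under the other totals and scalings, and 206 of 367 with both strands together. It called 232 of 613 with a count minimum of 1 and 194 of 242 with a count minimum of 100, so the share called depended on that minimum. With a count minimum of 100 Mir211 has no value. With a pseudocount of 0.1, all 5 genes nearest to Mir204 and 4 of the 5 nearest to Mir211 stayed the same. Depth limits Mir211 in replicate 1, where 6 counts give an interval of 0.922 to 5.47 CPM.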
